A study of Arabidopsis thaliana with 8 samples.

Results

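DFR, UGT73C6 and UGT71C1 are 3 Arabidopsis thaliana genes of flavonoid metabolism, a reductase of the anthocyanin branch and a pair of UDP-dependent glycosyltransferases. They were matched by their RefSeq symbols and are 3 of 16554 genes measured with a named probe set. They were chosen by their measured differences between the groups of this study, so their own values are given as a description, with no test.

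Affymetrix arrays were hybridized with RNA from pools of about 120 whole seedlings of the Columbia background, 7 days old, with 4 groups of 2 arrays described as biological replicates. The first group was wild type on solid MS medium, a sister line obtained when the mutant was backcrossed, and the second was fh1-1, a mutant of the formin gene FH1, on the same medium. Both stayed on solid medium for 7 days with 16 h of light a day. The other 2 groups were wild-type seedlings that spent 6 days on solid medium and 1 day in shaken liquid MS medium under continuous light, without (the liquid control) or with 20 uM SMIFH2, an inhibitor of the formin FH2 domain. The study asked how impaired formins, proteins that start and lengthen actin filaments, alter transcript levels. Solid and liquid groups differed in medium, shaking and light at once, and these cannot be told apart. The solvent given to the liquid control is not given in the sources used here, and FH1 itself was not analysed here.

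Flavonoids are made from phenylalanine by way of chalcones, flavanones and dihydroflavonols. Dihydroflavonols then go either to flavonols or, through dihydroflavonol 4-reductase (DFR), to the precursors of anthocyanins and proanthocyanidins. Glycosyltransferases of the UGT families attach sugars to the finished molecules, which makes them soluble and lets them be stored in the vacuole. In Arabidopsis seedlings the anthocyanin branch is known to respond to light, sugar and stress.

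Values are log2 expression as the authors deposited them, so a difference of 1 is a doubling, and errors of differences are standard errors (SE) from a limma fit of all 8 arrays. The array medians lay between 3.89 and 3.96, and the 25th percentiles between 2.13 and 2.24. Across genes the arrays within a group had r = 0.977 to 0.986, and the median SE of a difference was 0.18. The number of arrays limits the precision.

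DFR (AT5G42800) was low in both untreated wild-type groups and high in both groups with impaired formins. Its log2 levels were 2.91 and 2.74 in wild type on solid medium and 6.20 and 5.50 in fh1-1. They were 2.64 and 2.91 in the liquid control and 6.33 and 6.47 with SMIFH2. All 4 arrays of the mutant and of the inhibitor were thus above the array medians, and all 4 untreated arrays were below them.

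The DFR level was 3.02 ± 0.22 higher in fh1-1 than in wild type (8.13-fold, n = 2 arrays per group), which placed it 54 from the top among the 16554 genes. With SMIFH2 it was 3.63 ± 0.22 higher than in the liquid control (12.4-fold, n = 2), at place 8 from the top. Between liquid and solid medium in wild type the difference was -0.05 ± 0.22, within the spread and of no settled sign (-0.19 to 0.09 over the alternative settings), and those groups overlapped. In order of level, SMIFH2 stood above fh1-1 by 0.56 without overlap of the arrays, and the 2 wild-type groups did not differ beyond their spread. The SMIFH2 difference exceeded the fh1-1 difference by 0.61 ± 0.32, a value that lay between 0.26 and 0.95 over the alternative settings and was lowest without array 2 of fh1-1, the array at 5.50.

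**Figure D1:**
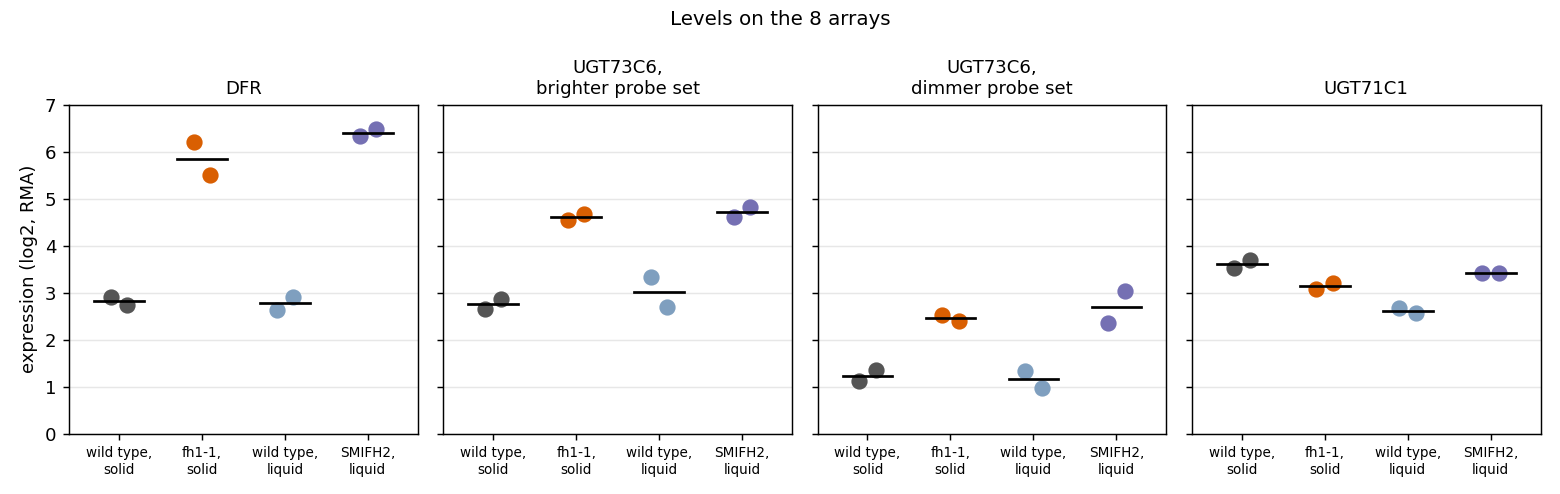
Log2 expression (vertical axis) of DFR, of both probe sets of UGT73C6 and of UGT71C1 on each of the 8 arrays, by group (horizontal axis); points are arrays and horizontal bars are means of 2 arrays. DFR and UGT73C6 sit high in fh1-1 and SMIFH2, whereas UGT71C1 sits lowest in the liquid control.

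UGT73C6 (AT2G36790) encodes a glucosyltransferase that acts at position 7 of flavonol glycosides and that can also glucosylate brassinosteroids. It had a brighter and a dimmer probe set, and the brighter one stood for the gene. On the brighter set its levels were 2.65 and 2.87 in wild type on solid medium, 4.55 and 4.67 in fh1-1, 3.33 and 2.69 in the liquid control, and 4.61 and 4.82 with SMIFH2. Every array of the mutant and of the inhibitor was above every untreated array. The level was 1.85 ± 0.21 higher in fh1-1 (3.61-fold, n = 2 arrays per group), place 240 of 16554 from the top. With SMIFH2 it was 1.71 ± 0.21 higher (3.26-fold, n = 2), place 171. The fh1-1 and SMIFH2 arrays overlapped in level, as did the 2 wild-type groups, and the SMIFH2 difference minus the fh1-1 difference was -0.15 ± 0.30. The wild-type groups differed by 0.25 ± 0.21 between the media. Without array 1 of the liquid control both of these small differences changed sign, to 0.17 and -0.07.

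The dimmer probe set of UGT73C6 gave 1.12 and 1.35 in wild type on solid medium, 2.53 and 2.41 in fh1-1, 1.34 and 0.98 in the liquid control, and 2.35 and 3.04 with SMIFH2. Untreated arrays were thus below the 25th percentile of every array, and those of the mutant and the inhibitor above it. Its differences were 1.24 ± 0.26 in fh1-1 and 1.54 ± 0.26 with SMIFH2, in the direction of the brighter set. Over the 8 arrays the probe sets correlated at r = 0.968, which describes the shared group pattern of 2 probe sets measured on the same RNA.

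UGT73C6 lies in a run of 6 neighbouring UGT73C genes on chromosome 2, in the order UGT73C1, UGT73C2, UGT73C4, UGT73C3, UGT73C6 and UGT73C5, of which UGT73C5 was not analysed here. These genes are close copies of each other, so probes of one can pick up RNA of another, and their values are uncertain to that extent. The probe-set numbers of the 2569 single-gene probe sets on chromosome 2 fall into 2 series that each follow the locus order, in 99.0% and 98.5% of steps. The dimmer UGT73C6 set stands directly after UGT73C3 in one series, and the brighter set stands in the other, between AT2G36724 and AT2G36815. The brighter set thus has no other gene of the run beside it. Which strand a series reads is not given in the sources used here, so whether the brighter set reads the UGT73C6 transcript or its opposite strand cannot be told apart. The places among all genes given for UGT73C6, and its most similar genes, rest on the brighter set unless the dimmer one is named.

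UGT71C1 (AT2G29750), whose enzyme glucosylates quercetin and small phenolic acids in vitro, did not share this pattern. Its levels were 3.53 and 3.69 in wild type on solid medium, 3.07 and 3.21 in fh1-1, 2.67 and 2.57 in the liquid control, and 3.43 and 3.43 with SMIFH2. From high to low the order was wild type on solid medium, SMIFH2, fh1-1 and liquid control, and no neighbours in that order overlapped. All 8 values lay below the array medians.

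In fh1-1 the UGT71C1 level was 0.47 ± 0.15 under wild type, a difference of -0.47 (1.39-fold lower, n = 2 arrays per group). With SMIFH2 it was 0.81 ± 0.15 above the liquid control (1.76-fold, n = 2). In liquid medium, wild type was at -0.996 ± 0.15 relative to solid medium (1.99-fold lower, n = 2), place 220 of 16554 from the bottom. The SMIFH2 and medium comparisons share the liquid control arrays, so the low level there enters both. The SMIFH2 difference exceeded the fh1-1 difference by 1.28 ± 0.21, place 107 from the top. UGT71C1 neighbours UGT71C2, a related gene whose differences were -0.45 in fh1-1 and -0.15 with SMIFH2.

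**Figure D2:**
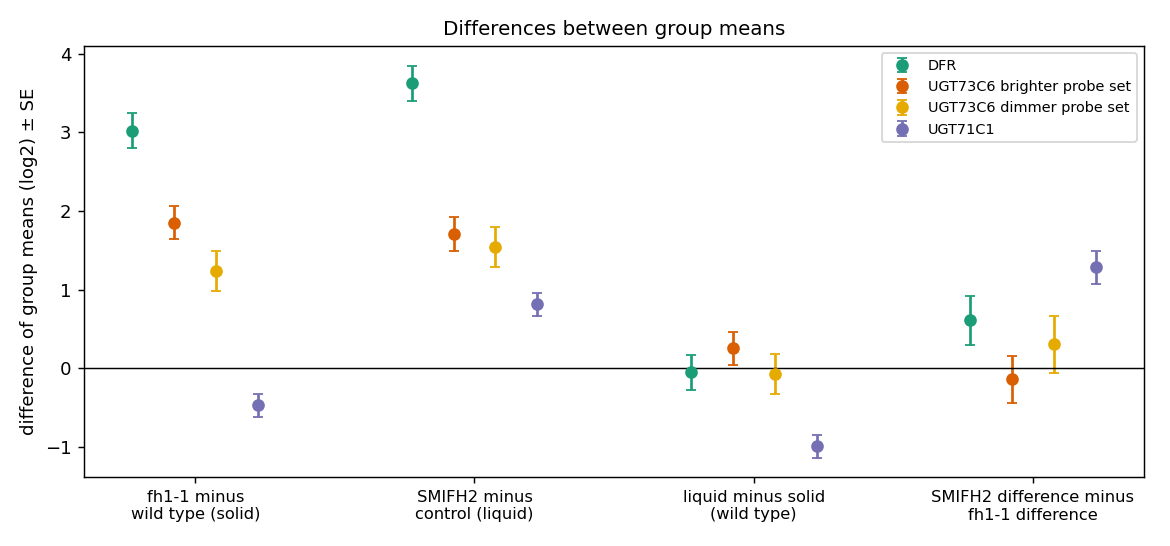
Log2 differences (vertical axis) of DFR, both UGT73C6 probe sets and UGT71C1 in each comparison (horizontal axis), with bars of 1 SE. DFR and UGT73C6 lie above 0 in the fh1-1 and SMIFH2 comparisons and near 0 between the media. UGT71C1 lies below 0 in fh1-1 and between the media.

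Arrays of the compared groups did not overlap for 3 of the 3 genes in fh1-1 and in SMIFH2, and for 1 of the 3, UGT71C1, between the media. Non-overlap with 2 arrays per group was common among all genes, at 60.9% in fh1-1, 53.8% with SMIFH2 and 46% between the media. Over the 8 arrays DFR correlated with either UGT73C6 probe set at r = 0.955, and with UGT71C1 at r = 0.247. These correlations describe 4 group means on shared RNA.

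The other genes of flavonoid synthesis, decoration and regulation came from lists of 63 genes, of which 13 were measured with a named probe set. None of the 9 genes of the phenylpropanoid entry was among them. Neither were the core genes CHS, CHI, F3H, F3'H, LDOX and the FLS genes, and of 24 regulators only 1 was. DFR could thus be set beside CHIL in the core pathway, 11 other decoration genes and the regulator HYH, so the counts are mostly of decoration genes. In fh1-1, 2 of the 13 rose and 0 fell (limma, adjusted p under 0.05 over all genes). Among all genes 10.9% rose and 11.7% fell. With SMIFH2, 3 of the 13 rose and 0 fell, against 7.78% and 7.07% of all genes. Their median difference was 0.32 in fh1-1, beside -0.05 over all genes, and 0.53 with SMIFH2, beside -0.02. Arrays did not overlap for 10 of the 13 in fh1-1 (8 upward, 2 downward), against 60.9% of all genes, and for 9 with SMIFH2 (7 upward, 2 downward), against 53.8%. Several of the 13 were dim, and 7 remained when the third of genes with the lowest level was left out.

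CHIL (AT5G05270), a chalcone isomerase-like protein known to raise flavonoid output without being the isomerase itself, rose furthest of the 13 in both comparisons. Its levels were 2.17 and 2.44 in wild type on solid medium, 4.40 and 4.49 in fh1-1, 2.66 and 2.48 in the liquid control, and 4.31 and 4.03 with SMIFH2. As with DFR, the 4 arrays of the mutant and the inhibitor were above the 4 untreated ones. CHIL rose by 2.14 ± 0.17 in fh1-1 (limma adjusted p = 2.4e-05) and by 1.60 ± 0.17 with SMIFH2 (limma adjusted p = 0.00025).

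UGT75C1, the anthocyanin 5-O-glucosyltransferase, rose by 0.62 ± 0.20 in fh1-1 (limma adjusted p = 0.049). This call was lost in 9 of 15 alternative settings (0.026 to 0.24), among them without wild-type array 1 (0.18) or 2 (0.12), fh1-1 array 1 (0.11) or 2 (0.24), and either liquid control array (0.051). With it the pathway count in fh1-1 fell to 1. Its SMIFH2 difference was 0.60 and did not pass, other than without SMIFH2 array 1 (0.86, limma adjusted p = 0.038).

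With SMIFH2, UGT89C1, which adds rhamnose at position 7 of flavonols, rose by 0.96 ± 0.15 (limma adjusted p = 0.0025). Its levels were 5.38 and 5.43 in wild type on solid medium, 5.46 and 5.43 in fh1-1, 4.78 and 4.72 in the liquid control, and 5.85 and 5.57 with SMIFH2. Like UGT71C1 it was lowest in the liquid control. A dimmer UGT89C1 probe set gave 0.07 in the SMIFH2 comparison, so the probe sets of this gene disagree.

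At3AT2, a coumaroyltransferase of anthocyanins, rose by 0.70 ± 0.20 with SMIFH2 (limma adjusted p = 0.048). The call was lost in 11 of 15 alternative settings (0.034 to 0.26), including without either fh1-1 array (0.061), liquid control array 1 (0.074) or 2 (0.18), and SMIFH2 array 1 (0.26) or 2 (0.069). UGT78D2, the flavonoid 3-O-glucosyltransferase, had differences of 0.38 in fh1-1 and 0.66 with SMIFH2, and UGT79B1, which extends the anthocyanin sugar chain, had 0.42 and 0.77. Neither passed, but UGT79B1 did with SMIFH2 when the replicate number was a block (limma adjusted p = 0.032). It also did once array 1 of the liquid control was left out (1.13). Without array 2 of the liquid control, UGT78D3, a flavonol arabinosyltransferase, passed downward (-0.66, limma adjusted p = 0.044), and the pathway count became 2 up and 1 down.

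Between the media, 0 of the 13 pathway genes rose and 1 fell, with 2.22% of all genes higher and 2.48% lower in liquid medium. The gene was UGT89C1, at -0.65 ± 0.15 (limma adjusted p = 0.04). The call was lost in 10 of 15 alternative settings (0.027 to 0.17), including without wild-type array 1 (0.11) or 2 (0.17) on solid medium, either fh1-1 array (0.076), or liquid control array 1 (0.091) or 2 (0.13). Without liquid control array 2 the count turned to 1 higher and 0 lower, the gene then being UGT78D3 (1.03, limma adjusted p = 0.027). Where the SMIFH2 and fh1-1 differences were compared with each other, 0.356% of all genes were higher with SMIFH2 and 0.387% lower. None of the 13 passed there by limma, and 2 were under an unadjusted p of 0.05, near the 12.5% of all genes that were.

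**Figure D3:**
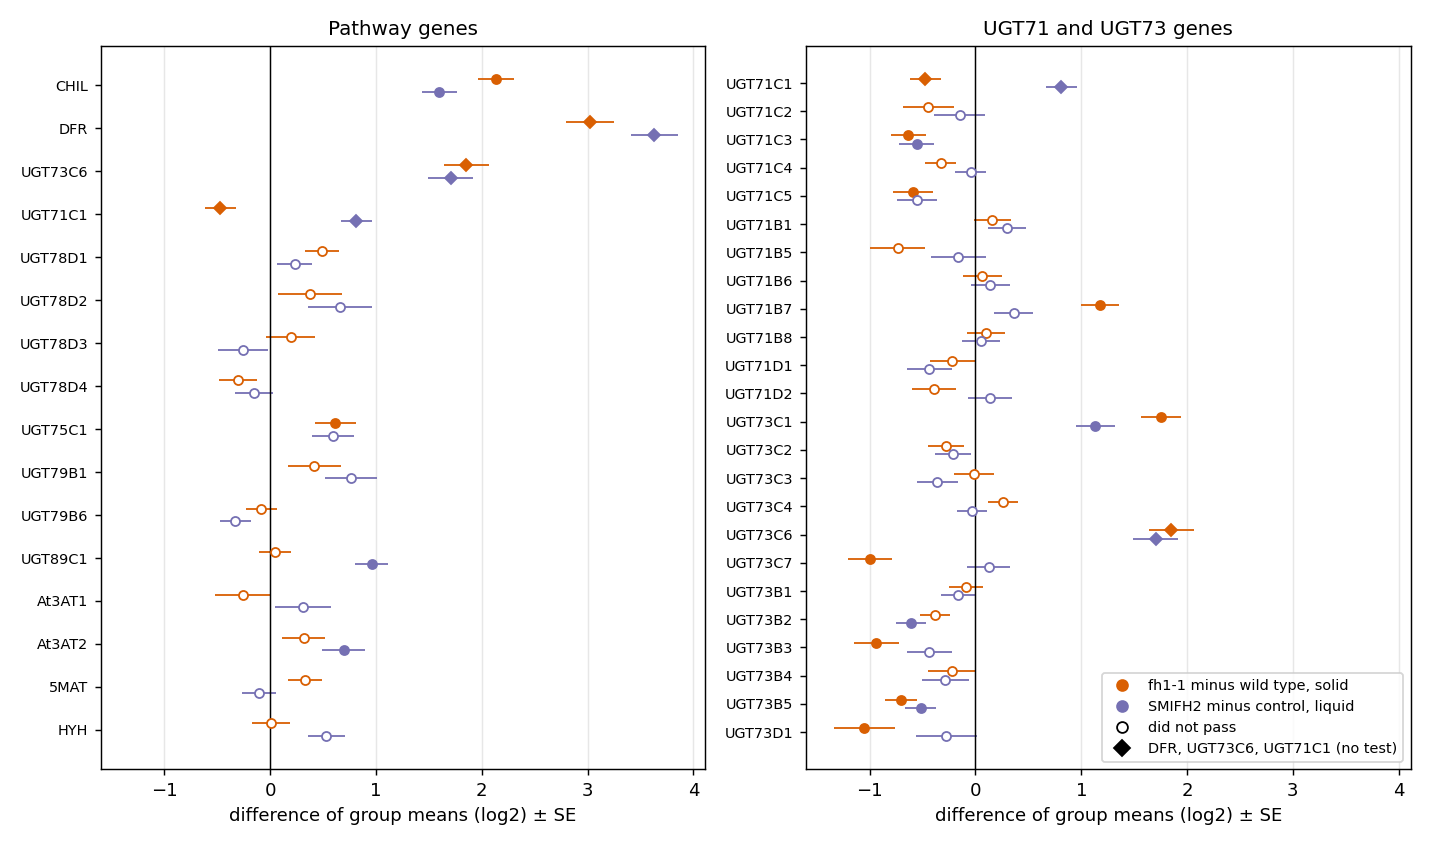
Log2 differences (horizontal axis, with SE bars) of every measured pathway gene (left) and every measured UGT71 and UGT73 gene (right), in rows by gene (vertical axis). Colours are the fh1-1 and SMIFH2 comparisons, diamonds are DFR, UGT73C6 and UGT71C1, and open circles are genes that did not pass. DFR, UGT73C6, CHIL and UGT73C1 lie right of 0 in both comparisons. UGT71C1 lies left of 0 in fh1-1 and right of 0 with SMIFH2.

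Of the close relatives of the 2 glycosyltransferases, the UGT71 and UGT73 families, 22 of 24 were measured. In fh1-1, 2 of the 22 rose and 6 fell (limma, adjusted p under 0.05 over all genes), against 10.9% and 11.7% of all genes, and the median difference was -0.30, beside -0.05 over all genes. With SMIFH2, 1 rose and 3 fell, against 7.78% and 7.07%, and the median was -0.17, beside -0.02. Arrays did not overlap for 15 of the 22 in fh1-1 (4 upward, 11 downward), near the 60.9% of all genes, and for 13 with SMIFH2 (5 upward, 8 downward), near the 53.8%. The balance of rises and falls rested on single arrays. Without fh1-1 array 1 the count in fh1-1 was 2 up and 1 down, and without fh1-1 array 2 it was 2 up and 2 down. With SMIFH2 it was 1 up and 0 down without liquid control array 2, SMIFH2 array 1 or SMIFH2 array 2, and in a fit of the compared arrays only.

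UGT73C1 (AT2G36750), the first gene of the run that holds UGT73C6 and known to glucosylate cytokinins, rose in both comparisons. Its levels were 2.30 and 2.06 in wild type on solid medium, 3.92 and 3.94 in fh1-1, 3.01 and 2.57 in the liquid control, and 3.79 and 4.06 with SMIFH2. As for UGT73C6, the arrays of the mutant and the inhibitor were all above the untreated ones. The rises were 1.75 ± 0.19 (limma adjusted p = 0.00014) in fh1-1 and 1.13 ± 0.19 (limma adjusted p = 0.0031) with SMIFH2. The genes between them did not pass in either comparison, but UGT73C3 (1.27 to 1.95) and UGT73C4 (1.27 to 1.59) lay below the 25th percentile on every array, where a change would be hard to detect. UGT73C2 had -0.28 in fh1-1 and -0.21 with SMIFH2, UGT73C4 had 0.26 and -0.03, and UGT73C3 had -0.02 and -0.36.

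UGT71B7, related to an abscisic acid glucosyltransferase, also rose in fh1-1, by 1.18 ± 0.18 (limma adjusted p = 0.0015), from 6.14 and 6.61 to 7.64 and 7.46. Its SMIFH2 difference was 0.36 and did not pass. The falls in fh1-1 were those of UGT73D1 (-1.05 ± 0.29), UGT73C7 (-0.998 ± 0.21), UGT73B3 (-0.94 ± 0.21), UGT73B5 (-0.70 ± 0.15), UGT71C3 (-0.63 ± 0.16) and UGT71C5 (-0.59 ± 0.19). UGT73C7 glucosylates phenolic acids, and UGT73B3 and UGT73B5 are known for their induction by pathogens. Each of these 6 calls was lost when certain single arrays were left out. For UGT73D1 they were wild-type array 1 (adjusted p = 0.074 by limma) or 2 (0.12) and fh1-1 array 1 (0.055) or 2 (0.16). For UGT73C7 it was fh1-1 array 1 (0.055), for UGT73B3 wild-type array 1 (0.056) or fh1-1 array 2 (0.085), and for UGT73B5 wild-type array 2 (0.058) or fh1-1 array 1 (0.061). For UGT71C3 they were wild-type array 1 (0.1) and fh1-1 array 1 (0.14) or 2 (0.057). The UGT71C5 call was lost in 11 of 15 alternative settings (adjusted p = 0.032 to 0.28 by limma), among them every other normalization and prior tried, and the arrays were wild-type array 2 (0.28), fh1-1 array 1 (0.2) or 2 (0.14) and either SMIFH2 array (0.065). The count of 8 paralogs past the threshold in fh1-1 became 3 without fh1-1 array 1 and 4 without array 2.

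With SMIFH2 the falls among the paralogs were those of UGT73B2 (-0.61 ± 0.14), a flavonol glucosyltransferase, UGT71C3 (-0.56 ± 0.16) and UGT73B5 (-0.52 ± 0.15). The UGT73B2 call was lost without liquid control array 1 (adjusted p = 0.059 by limma) or 2 (0.06) and SMIFH2 array 1 (0.11) or 2 (0.06). The UGT71C3 call was lost without any single array (0.058 to 0.2) other than liquid control array 1, and that of UGT73B5 without either fh1-1 array (0.073), liquid control array 1 (0.14) or 2 (0.088), and SMIFH2 array 1 (0.17) or 2 (0.13). The count of 4 became 2 without either fh1-1 array, and 1 without liquid control array 2 or SMIFH2 array 1 or 2. Between the media 1 paralog, UGT73C7, fell by 1.12 ± 0.21 (limma adjusted p = 0.015). This call was lost without wild-type array 2 on solid medium (0.077) and without liquid control array 1 (0.05) or 2 (0.066). In the difference of effects 0 of the 22 passed by limma, other than 1, UGT73C7, without wild-type array 1 on solid medium (limma adjusted p = 0.043). Of the 22, 3 were under an unadjusted p of 0.05, near the 12.5% of all genes.

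DFR has relatives among the short-chain reductases, of which 2 others were measured. CCR2, a cinnamoyl-CoA reductase of lignin synthesis, rose by 0.76 ± 0.17 in fh1-1 (limma adjusted p = 0.0095) and by 0.76 ± 0.17 with SMIFH2 (limma adjusted p = 0.014). The first call was lost without wild-type array 2 (0.069) or fh1-1 array 1 (0.082), and the second without liquid control array 2 (0.07) or SMIFH2 array 1 (0.066) or 2 (0.079). BAN, the anthocyanidin reductase of seed coat proanthocyanidins, lay between 1.90 and 2.44 on all arrays, near the 25th percentiles, with differences of -0.04 and -0.23. Of 15 genes of a xenobiotic response list 4 were measured, UGT73C6 among them. Of the other 3, 0 rose and 1 fell in fh1-1, against 10.9% and 11.7% of all genes. With SMIFH2 again 0 rose and 1 fell, against 7.78% and 7.07%. The gene was UGT73B5 in both, and its calls were lost in 2 and 9 of 15 alternative settings. GSTU25 had 0.55 with SMIFH2 without overlap of arrays (limma adjusted p = 0.051). It passed with quantile normalization (limma adjusted p = 0.045) and without the dimmest genes (0.034).

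The genes whose levels followed each member most closely were taken by Pearson's r over the 8 arrays, among genes with a symbol whose group means spanned at least 1. For DFR these were AOR (r = 0.992), a plastid reductase of reactive carbonyls, the glutathione transferase GSTU18 (r = 0.987), GH3.9 (r = 0.986), of a family that joins auxin to amino acids, the plastoglobule protein FIB (r = 0.985), and VTC4 (r = 0.984), of ascorbate synthesis. For UGT73C6 they were HCF101 (r = 0.985), an assembly factor of iron-sulfur clusters in the chloroplast, NdhU (r = 0.984), a subunit of the chloroplast NDH complex, HPR (r = 0.984), the hydroxypyruvate reductase of photorespiration, the thionin THI2.2 (r = 0.983), and APS3 (r = 0.981), an ATP sulfurylase. THI2.2 moved over a wider range than UGT73C6, from a mean of 2.13 in wild type on solid medium to 7.94 with SMIFH2. Many genes had such a pattern. Of 2172 compared, with or without a symbol, 265 had r above 0.95 with DFR and 142 had r below -0.95, and for UGT73C6 the counts were 248 and 89.

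UGT71C1 had few genes with a like pattern. The nearest with a symbol were the lectin JAL33 (r = 0.915), hemb2 (r = 0.852), named as a porphobilinogen synthase, TBL36 (r = 0.845), the lectin JAL22 (r = 0.837) and the carboxypeptidase-like SCPL15 (r = 0.816). Of 2173 genes compared, with or without a symbol, 1 had r above 0.95 with it, a gene known by its locus code only, and 2 had r below -0.95.

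**Figure D4:**
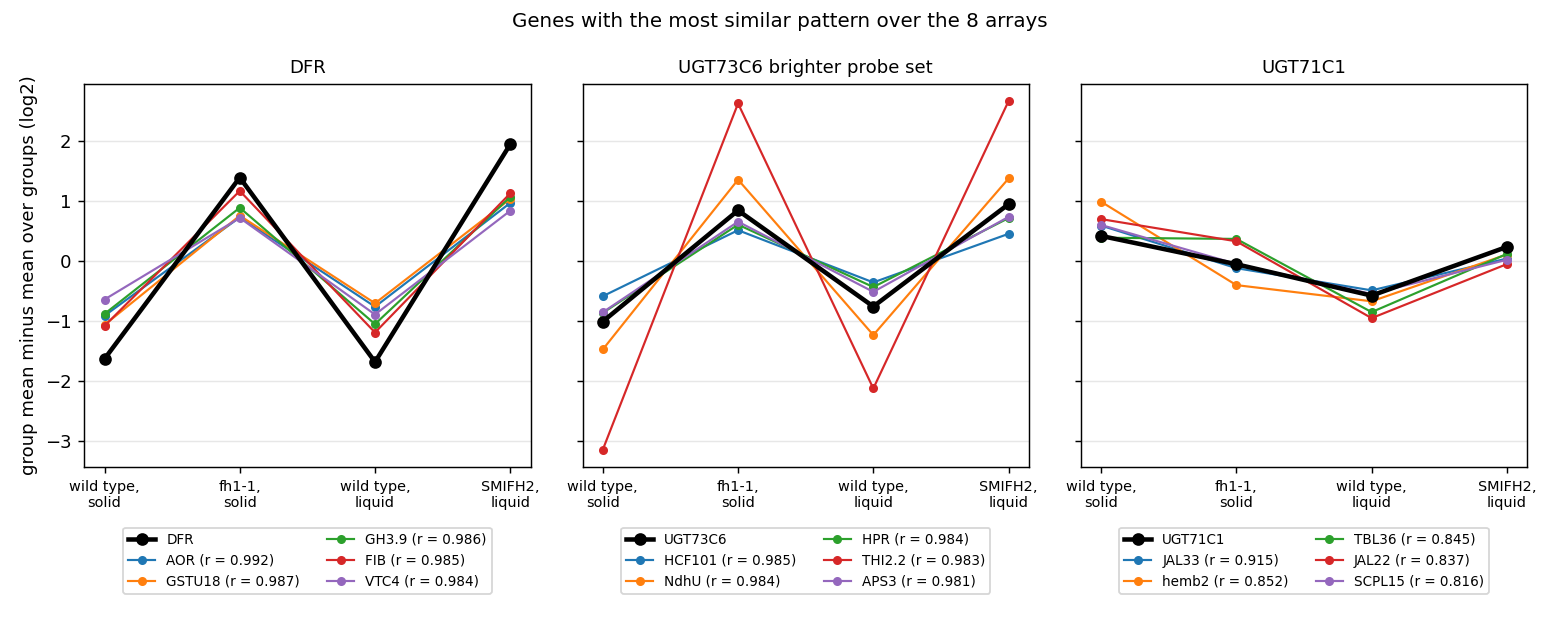
Group means of DFR, UGT73C6 (brighter probe set) and UGT71C1 (black) and of the 5 genes with a symbol most like each (coloured), as log2 differences from the mean over the 4 groups (vertical axis), by group (horizontal axis). The lines of the DFR and UGT73C6 panels are high in fh1-1 and SMIFH2, and the UGT71C1 panel is lowest in the liquid control.

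The seedlings were measured whole, so fewer cells of a type and less RNA per cell cannot be told apart, and markers of shoot and root were read beside these genes. Of 7 measured shoot markers (of 8), 7 rose and 0 fell in fh1-1 (limma, adjusted p under 0.05), against 10.9% and 11.7% of all genes. With SMIFH2 5 rose and 0 fell, against 7.78% and 7.07%. These were the photosynthesis genes RCA, SBPASE, PRK, LHB1B2 and PSAN. The stomatal lineage genes SPCH (0.51, limma adjusted p = 0.11) and FMA (0.06, limma adjusted p = 0.88) did not pass with SMIFH2. In liquid against solid medium 5 rose and 0 fell, against 2.22% and 2.48%. The mean log2 level of the shoot markers was 6.48 to 6.54 in wild type on solid medium and 8.68 to 8.83 in fh1-1. It was 7.61 to 7.65 in the liquid control and 8.71 to 8.79 with SMIFH2. This mean, of mostly photosynthesis genes, thus moved with DFR and UGT73C6 in the fh1-1 and SMIFH2 comparisons. It also moved between the media, where DFR differed by -0.05 and UGT73C6 by 0.25. Between the media the calls of SBPASE, PRK and FMA were lost in 10, 11 and 5 of 15 alternative settings. Those of LHB1B2 and PSAN there were lost in none. The 5 measured root markers (of 11) had mean levels of 8.18 to 8.42, 8.10 to 8.16, 7.47 to 7.49 and 8.07 to 8.12 in the same order of groups, lowest in the liquid control, as UGT71C1 was. JAL22 is among these 5. In fh1-1 1 of the 5 rose and 1 fell, with SMIFH2 3 rose and 0 fell, and in liquid medium 0 rose and 3 fell. The shares of all genes are those given for the shoot markers. Each of these root calls was lost in 2 to 8 of 15 alternative settings, other than the fall of JAL22 in liquid medium. The part of either set of markers in the levels of DFR, UGT73C6 and UGT71C1 was not tested.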

How the data were processed

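Total RNA of whole seedlings went to NASC for labelling, hybridization and scanning (per the labels' protocols). The deposited log2 values came from RMA, a method of background correction, joint normalization and probe-set summary, with Affymetrix Expression Console 1.4 and Transcriptome Analysis Console 3.1, per the submitters' processing notes. RMA compresses low levels, so folds of dim probe sets may be understated. The array build is not given in the sources used here.

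Of 38408 probe sets, 16746 were paired with 1 gene in the annotation given, 758 with several genes and 20904 with none. The brightest probe set was taken for 163 genes with more than 1, leaving 16554. Symbols were matched by Entrez ID to RefSeq; 136 genes had no match. Groups came from the sample labels. Comparisons used limma 3.58.1 (R 4.3.3; lmFit and eBayes on all 8 arrays, 4 residual and 5.81 prior degrees of freedom), with Benjamini-Hochberg adjustment over all genes and a threshold of 0.05. The steps were tested on simulated data.

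The 3 genes, the gene lists and the tests were chosen with earlier results of these data known. Named are DFR, UGT73C6, UGT71C1, the measured core pathway genes, up to 6 genes per list and comparison that passed without overlap of arrays, and 5 genes per member by likeness. Other named list genes were chosen after their values were seen. Alternatives were a fit of the compared arrays only, the replicate number as a block, quantile and cyclic loess normalization, every probe set, leaving out the third of genes with the lowest level, a trended robust prior, and omission of each array, which leaves 1 array in its group that is assumed to vary like the other groups.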

Additional observations from a re-analysis of the deposited data

Results flagged for a closer look

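UGT71C1 moved in opposite directions in the fh1-1 comparison (-0.47) and the SMIFH2 comparison (0.81), with no overlap of arrays in either. Non-overlap was common among all genes, at 60.9% in fh1-1 and 53.8% with SMIFH2. The share of all genes with opposite directions and no overlap is not given here. The difference of 1.28 was not tested, because the gene was chosen with these values known. Among its relatives, UGT71D2 differed between the effects by 0.53 (-0.39 and 0.14, limma adjusted p = 0.52) and UGT73C7 by 1.12 (-0.998 and 0.12, limma adjusted p = 0.13). Both had arrays that moved opposite ways without overlap, and neither difference passed, though UGT73C7 did without wild-type array 1 on solid medium (1.44, limma adjusted p = 0.043).

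Among the markers read beside these genes, the shoot marker LHB1B2, a light-harvesting protein, rose further in fh1-1 (4.83) than with SMIFH2 (1.54). The difference was -3.29 (limma adjusted p = 0.0016, and 0.06 with every probe set tested). The root markers PYK10 (0.34, limma adjusted p = 0.54), BGLU21 (1.16, limma adjusted p = 0.13), BGLU22 (1.06, limma adjusted p = 0.099) and JAL22 (1.27, limma adjusted p = 0.066) were lower in fh1-1 and higher with SMIFH2 without overlap of arrays, and none of these 4 differences passed. Such non-overlap was common among all genes, at the shares given above. Under alternative settings the JAL22 difference passed in 5 of 14, that of BGLU21 in 2 and that of BGLU22 in 1.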

How the results depend on the processing

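Of the differences of single genes under alternative settings, 707 stayed on their side of the threshold or within the spread, 134 missed it and 10 moved beyond the spread. For DFR, UGT73C6 and UGT71C1 many settings cannot change a difference, such as omission of an array outside the compared groups. Part of the 707 was thus fixed in advance. No difference past the threshold changed sign. Small differences within the spread did: DFR between the media (-0.05) was 0.03 without wild-type array 1 on solid medium, 0.09 without liquid control array 1 and 0.002 with cyclic loess, and UGT73C6 without liquid control array 1 was -0.07 between the media and 0.17 in the difference of effects. DFR kept differences of 2.68 to 3.37 in fh1-1 and 3.49 to 3.77 with SMIFH2, UGT73C6 1.74 to 1.96 and 1.39 to 2.03, and UGT71C1 -0.55 to -0.39 and 0.76 to 0.86. The count of pathway genes past the threshold in fh1-1 was 2, and 1 with every probe set or a trended robust prior. With quantile normalization or cyclic loess this count was 3, as UGT78D1 also passed upward (0.55, limma adjusted p = 0.039 in both). Between the media it was 1, and 0 with the compared arrays only, cyclic loess or every probe set. The paralog count with SMIFH2 was 4, then 1 with the compared arrays only and 2 with every probe set. Between the media it was 1, then 0 with the compared arrays only or every probe set and 2 without the dimmest genes or a trended robust prior. With the replicate block the counts were 1 for the pathway in fh1-1, 0 for the pathway between the media and 2 for paralogs with SMIFH2. The other counts under the block stayed within 1.5 times. Arrays with the same number did not deviate together (r = -0.055 to 0.014), so they share a number only. Leaving out each array in turn gave 1 to 2 pathway genes in fh1-1, 2 to 3 with SMIFH2, 0 to 1 between the media and 0 to 0 in the difference of effects. For paralogs it gave 3 to 8, 1 to 3, 0 to 1 and 0 to 1, the last 1 without wild-type array 1 on solid medium. Within these ranges directions changed as given in the report, for the pathway without liquid control array 2 and for paralogs without fh1-1, SMIFH2 or liquid control arrays. The causes were not tested. The compared-arrays fit was not run for the difference of effects. Low signal limits the dimmer UGT73C6 probe set, BAN, UGT71C2, UGT71D2, UGT73C2, UGT73C3 and UGT73C4, which lie near or below the 25th percentiles.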

Other observations

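Across all genes whose RefSeq symbol begins with UGT, a list drawn up after values had been seen, 49 were measured besides UGT73C6 and UGT71C1. UGT genes with another RefSeq symbol were left out, among them UGT71B7, UGT75C1 and UGT89C1. Of the pathway genes and paralogs so left out, UGT71B7 and UGT75C1 passed upward in fh1-1 and UGT89C1 with SMIFH2. None passed downward in those comparisons, and UGT89C1 fell between the media. In fh1-1, 4 of them rose and 13 fell (limma, adjusted p under 0.05), against 10.9% and 11.7% of all genes, and with SMIFH2 3 rose and 8 fell, against 7.78% and 7.07%. Between the media 2 rose and 3 fell. Their median difference was -0.23 in fh1-1 and -0.11 with SMIFH2, beside -0.05 and -0.02 over all genes. For the 31 outside the UGT71 and UGT73 families the medians were 0.02 and -0.05, close to all genes, with 3 up and 7 down in fh1-1 and 2 up and 5 down with SMIFH2.

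At3AT1, an anthocyanin coumaroyltransferase beside At3AT2 in function, had 3 probe sets that disagreed. The brightest gave -0.25 in fh1-1 and 0.31 with SMIFH2, another gave -0.92 and -1.04, and the dimmest gave -0.02 and 0.13. For the dimmer probe set of UGT73C6 the nearest gene was SDH1-2 (r = 0.994 over the 8 arrays), a succinate dehydrogenase subunit, which was not among the 5 nearest to the brighter set.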
